A study of Mus musculus with 4 samples.

Results

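Pluripotency factors are the transcription factors and signals that hold early embryonic cells, and the embryonal carcinoma lines derived from them, in an undifferentiated state. This account follows 10 such genes, Pou5f1, Sall4, Nr0b1, Gdf3, Zfp42, Utf1, Tdgf1, Fgf4, Klf4 and Esrrb. They were chosen by name, with earlier results of these data known. All 16 array probe sets whose single annotated symbol is one of them were kept, of 22690 probe sets in the table. Expression was measured on 4 arrays of mouse P19 embryonal carcinoma cells, which turn towards neural fates when aggregated with retinoic acid. LIN28A cells (2 arrays) carried a constitutively expressed human LIN28A, whose protein binds precursors of let-7 microRNAs and keeps them from maturing, and control cells (2 arrays) were P19 cells without it. Both lines had spent 4 days as aggregates in retinoic acid (all-trans, 5e-07 M), so no undifferentiated culture was compared. The sources used here name neither the promoter that drives LIN28A nor whether the line is 1 clone or a pool. The labels number the arrays of each line 1 and 2 without saying what a number shares across lines.

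Pou5f1 (Oct4) is a POU-domain transcription factor that binds octamer sites, often beside Sox2, and retinoic acid is known to shut it off in embryonal carcinoma cells. Sall4, a zinc finger factor, and Nr0b1 (Dax1), an orphan nuclear receptor, bind Pou5f1 and share many of its targets. Gdf3 is a TGF-beta family ligand and Tdgf1 (Cripto) its membrane coreceptor, while Fgf4 is a secreted growth factor activated by Pou5f1 and Sox2 in stem cells. Zfp42 (Rex1), Utf1, Klf4 and Esrrb are nuclear factors of the undifferentiated state, Klf4 and Esrrb chiefly of the naive state that precedes implantation.

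The start sites of Pou5f1 and Nr0b1 are shown because these 2 genes had the largest differences between array numbers among the 10 genes. RefSeq windows on build GRCm38.p6 were found for 8 of the 10 genes, and not for Sall4 and Gdf3. The 250 bases before the start are given 5′ to 3′, with matches to AGGTCA, the hexamer bound by retinoid and other nuclear receptors, and to GGGCGG, the GC box bound by Sp1 family factors, in capitals. The Pou5f1 window lies at chr17:35505782-35506031 (+ strand) and the Nr0b1 window at chrX:86191525-86191774 (+ strand).
Pou5f1: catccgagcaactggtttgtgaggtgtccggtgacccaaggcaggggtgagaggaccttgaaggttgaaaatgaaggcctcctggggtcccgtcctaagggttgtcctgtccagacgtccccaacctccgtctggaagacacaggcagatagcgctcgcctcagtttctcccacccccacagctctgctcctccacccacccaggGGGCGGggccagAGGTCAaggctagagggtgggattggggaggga
Nr0b1: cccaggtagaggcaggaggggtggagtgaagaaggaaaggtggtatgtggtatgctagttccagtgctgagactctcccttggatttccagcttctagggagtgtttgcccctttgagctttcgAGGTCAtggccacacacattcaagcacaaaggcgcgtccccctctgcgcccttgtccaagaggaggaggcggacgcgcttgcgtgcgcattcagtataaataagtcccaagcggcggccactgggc
In the Pou5f1 window the GC box spans bases 45 to 40 before the start and AGGTCA bases 33 to 28, while the window of a second listed Pou5f1 start held none of the motifs. In the Nr0b1 window AGGTCA spans bases 126 to 121 before the start, and GGGCGG had no match. On either strand, AGGTCA occurred in 14% and GGGCGG in 32.7% of 32851 windows of the same length, and these were the only AGGTCA matches among the 8 genes' windows. The third motif searched, the octamer core ATGCAAA, was found in 4.12% of windows and, among the 8 genes, in that of Zfp42. GC boxes were also found before Zfp42, Utf1, Tdgf1, Fgf4 and Klf4. A match describes letters in a window and was not tested as a binding site.

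Before the genes themselves, the arrays differed by number in ways that touch every result. The deposited intensities had medians of 29.0 and 36.7 in LIN28A and 35.8 and 38.6 in control arrays. The 18S ribosomal RNA probe set read 11.3 and 9.2 in the number 2 arrays of LIN28A and control cells, against 136.3 and 676.6 in their number 1 arrays. The bioB hybridisation control gave 160.8 and 165.1 in the number 2 arrays, against 269.2 and 523.6 in the number 1 arrays. The 3' to 5' signal ratio, which grows as RNA degrades, was 3.09 and 2.76 in number 2 against 3.37 and 4.71 in number 1 for actin, and 0.821 and 0.775 against 1.12 and 1.15 for Gapdh. What part these play in the differences between numbers was not tested. The first principal component, with 63.6% of the variance, separated the numbers. Of the 16 probe sets, 10 from 8 genes passed the filter on low values and were tested. The 6 that did not were those of Zfp42 and Tdgf1, 3 of the 4 for Fgf4 and 1 of the 2 for Esrrb, all under an intensity of 16 on every array. The table holds no detection calls, so a low value cannot be placed above or below background, and levels of different probe sets are not compared here.

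Between the lines, limma was fitted over all 15838 probe sets with line as its only term. It called 0 higher (0%) and 0 lower (0%) in LIN28A cells at an adjusted p under 0.05. None of the 10 tested pluripotency probe sets thus passed. Without adjustment, p was under 0.05 for 70 higher (0.442%) and 192 lower probe sets (1.21%), and for 1 of the 10, Sall4. After median centring these numbers over all probe sets were 167 higher and 107 lower, so the balance turned. With quantile normalization they were 122 higher and 168 lower, so there it did not. The fit with line alone counts the difference between numbers as error. With number added as a term (the replicate block of the closing section), limma called 1 probe set higher and 0 lower, none of the 10. With 2 arrays against 2, an exact permutation test of a single gene cannot go below p = 0.333. The differences below are therefore values on these arrays, and in bulk RNA fewer expressing cells and less RNA per cell cannot be told apart.

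Sall4 separated the lines most widely. Its brighter probe set read 194.2 and 83.1 in LIN28A arrays 1 and 2, against 16.4 and 2.1 in control arrays 1 and 2. The 2 lines did not overlap, and within each line the number 1 array was the higher. On the log2(intensity + 16) scale, which understates changes of low values, LIN28A minus control was 2.70 in number 1 and 2.45 in number 2, ranks 5 and 7 from the highest of 22626 probe sets. The fitted difference was 2.58 ± 0.49 (SE, n = 2 per line; limma unadjusted p = 0.0020, adjusted p = 1), with 2.03 to 3.12 when each array was left out in turn. The second Sall4 probe set, whose name ending (_s_at) marks probes shared between transcripts, read 19.3 and 10.7 in LIN28A arrays against 8.2 and 0.5 in control arrays. It too was higher in both LIN28A arrays, by 0.54 in number 1 and 0.69 in number 2. Sall4 was the only one of the 10 genes past 1 on the log2 scale in both numbers, as were 0.0751% of all probe sets, and none of them was below -1 in both (0.217%).

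Utf1, a chromatin-associated factor of stem cells, also kept its lines apart at low values. It read 16.4 and 16.5 in LIN28A arrays against 5.5 and 3.8 in control arrays. The fitted difference was 0.65 ± 0.28 (SE; limma unadjusted p = 0.057, adjusted p = 1). Utf1 and the second Sall4 probe set passed the filter, at a mean of about 8.04, through the LIN28A arrays, so their tests are not independent of where they were high. Among the 16 probe sets, 3 (2 of Sall4 and that of Utf1) were higher in both LIN28A arrays and 3 (2 of Fgf4 and 1 of Esrrb) lower in both. The lower ones were low values too, and 1 of Fgf4, which failed the filter, read 0.5 and 0.7 against 2 and 2.5 in control arrays. The shares among all probe sets were 8.89% higher in both and 18% lower in both.

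**Figure D1:**
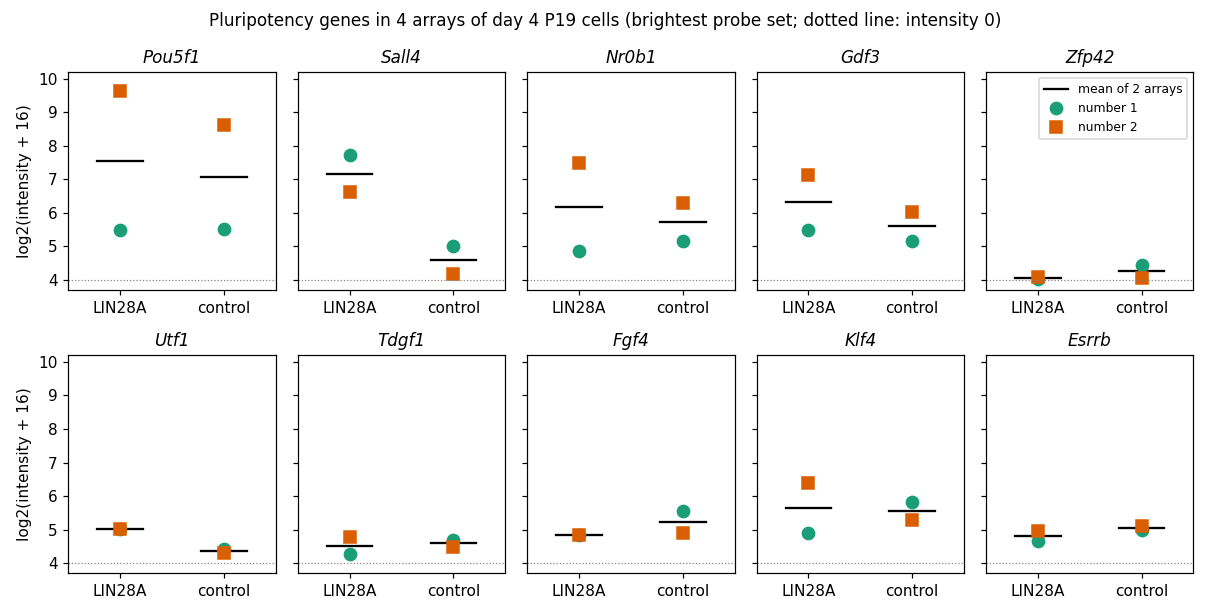
Each panel shows log2(intensity + 16) of one gene's brightest probe set, with LIN28A cells on the left and control cells on the right. Circles are number 1 arrays, squares number 2 arrays and bars the mean of 2 arrays. Sall4 separates the lines, while Pou5f1, Nr0b1 and Gdf3 separate the array numbers in both lines.

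Pou5f1 divided the arrays by number instead. It read 28.7 in LIN28A 1 and 775 in LIN28A 2, against 30.3 in control 1 and 374 in control 2. Both number 2 arrays stood far above both number 1 arrays, and the lines overlapped. The number 2 value was 27.0-fold the number 1 value in LIN28A cells and 12.35-fold in control cells. Number 2 minus number 1 was 4.15 (log2) in LIN28A cells, the highest of all 22626 probe sets, and 3.08 in control cells, rank 13.

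Nr0b1 followed the same order at lower values. It read 13.4 and 162.5 in LIN28A arrays 1 and 2, against 19.5 and 62.6 in control arrays 1 and 2. Both number 2 arrays lay above both number 1 arrays. Number 2 minus number 1 was 2.60 in LIN28A cells, rank 15, and 1.15 in control cells.

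Gdf3, the ligand, read 29.4 and 124.2 in LIN28A arrays 1 and 2, against 20.2 and 49.8 in control arrays 1 and 2. Again both number 2 arrays were the higher, by 1.63 in LIN28A cells and 0.86 in control cells. Of the 16 probe sets, these 3 were higher in both number 2 arrays, as were 26% of all probe sets, and 2 were lower in both (25.5%). In LIN28A cells 4 of the 16 were past 1 on the log2 scale (5.11% of all) and 1, Sall4, was below -1 (2.52%). In control cells 2 were past 1 (4.79% of all) and 0 below -1 (3.29%). Pou5f1 and Nr0b1 were past 1 in both lines, as were 2.04% of all probe sets, and 0 were below -1 in both (0.959%).

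A limma fit with number and line as terms gave the number difference a test in which the lines serve as the replicates. Over 15838 probe sets it called 5.85% higher and 2.56% lower in number 2 at an adjusted p under 0.05, which is 926 and 405 probe sets, against 592 and 788 after median centring. Of the 10 tested pluripotency probe sets it called 3 higher and 1 lower. Pou5f1 was higher by 3.61 ± 0.29 (SE; limma adjusted p = 0.016), Nr0b1 by 1.87 ± 0.35 (adjusted p = 0.036) and Gdf3 by 1.24 ± 0.25 (adjusted p = 0.042). Sall4 went the other way, with number 2 minus number 1 at -0.96 ± 0.21 (SE; limma adjusted p = 0.045). These calls were lost when the pseudocount was 1 (limma adjusted p = 0.13 for Pou5f1) or when no filter was used (0.067), settings that called 0 probe sets in all. The Sall4 call was also lost with a pseudocount of 64 (0.076) and with quantile normalization (0.051). The labels do not tie a number to a culture, a day or a scan, so what the number stands for cannot be told apart from handling of the arrays.

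**Figure D2:**
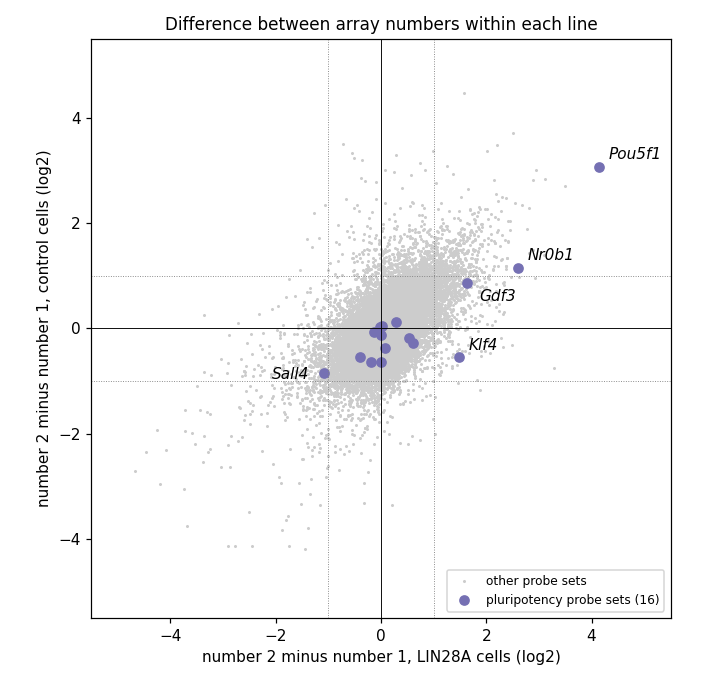
Each point is a probe set, with number 2 minus number 1 in LIN28A cells (x) and in control cells (y) on the log2(intensity + 16) scale. Pou5f1 lies at 4.15 and 3.08, apart from nearly all other probe sets, while Klf4 lies on opposite sides of 0 in the lines.

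Within number 2, LIN28A cells read above control cells for 5 of the 10 genes by over 1 on the log2 scale. Besides Sall4, LIN28A minus control was 1.02 for Pou5f1 (2.07-fold), 1.18 for Nr0b1 (2.60-fold), 1.09 for Gdf3 (2.49-fold) and 1.11 for Klf4 (2.97-fold). That Klf4 value is of its brighter probe set, and the second one gave 0.25. These 5 of the 16 probe sets compare with 0.782% of all probe sets past 1, and 0 of the 16 were below -1 (1.65%). Within number 1 only Sall4 was past 1 (0.725% of all probe sets) and 0 were below -1 (2.07%). There Pou5f1 differed by -0.05, Nr0b1 by -0.27, Gdf3 by 0.33 and Klf4 by -0.93. Each of these is 1 array against 1, with no replicate check. The genes were chosen with earlier results of these data known, so the shares beside all probe sets are no test.

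The difference between lines ran opposite ways in the 2 numbers for Klf4 and, at low number 1 values (13.4 against 19.5), for Nr0b1. Pou5f1 barely differed in number 1 (-0.05) and read higher in LIN28A cells in number 2 (1.02). Gdf3 read higher in LIN28A cells in both numbers. For Pou5f1 the fit over both numbers gave 0.48 ± 1.53 (SE; limma adjusted p = 1), against 2.56 when LIN28A replicate 1 was left out, -1.59 without LIN28A replicate 2, -1.05 without control replicate 1 and 2.02 without its replicate 2. For Nr0b1 it gave 0.46 ± 0.88, against 1.76 when LIN28A replicate 1 was left out, -0.85 without LIN28A replicate 2, -0.12 without control replicate 1 and 1.03 without its replicate 2. For Gdf3 it gave 0.71 ± 0.60, against 1.52 when LIN28A replicate 1 was left out, -0.10 without LIN28A replicate 2, 0.28 without control replicate 1 and 1.14 without its replicate 2. Each such fit leaves unequal numbers in the lines, so the difference between numbers enters it. With all 4 arrays and number added as a term, the SE was 0.29 for Pou5f1, 0.35 for Nr0b1 and 0.25 for Gdf3. The limma adjusted p of that fit was 0.64, 0.70 and 0.57 in the same order. The median over the 16 probe sets was -0.20 in number 1 and 0.27 in number 2, beside -0.11 and -0.0032 over all probe sets.

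**Figure D3:**
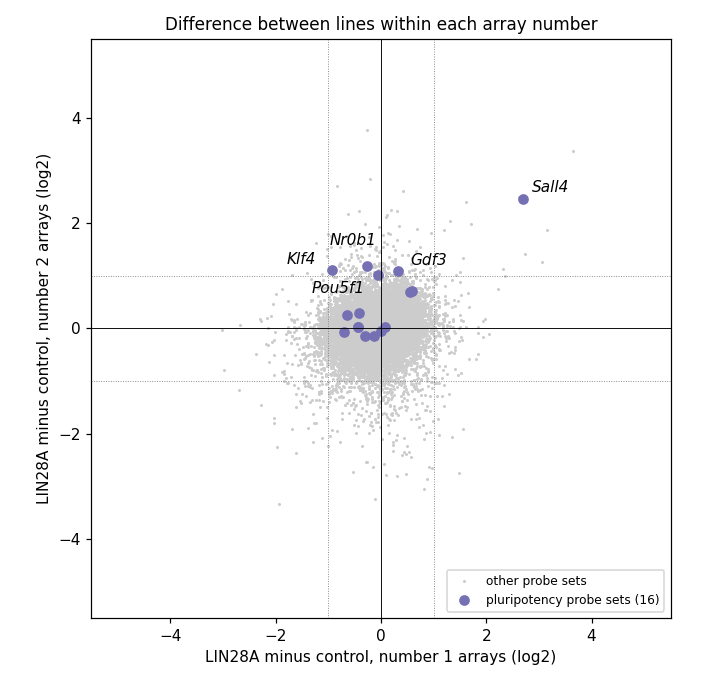
Each point is a probe set, with LIN28A minus control in number 1 (x) and in number 2 (y) on the log2(intensity + 16) scale. The brighter Sall4 probe set lies at 2.70 and 2.45. Pou5f1, Nr0b1, Gdf3 and the brighter Klf4 probe set lie above 1 in number 2 and between -0.93 and 0.33 in number 1. The second Klf4 probe set lies at -0.64 and 0.25.

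Klf4, a zinc finger factor of the naive state, took a different order in the lines. Its brighter probe set read 13.8 and 67.7 in LIN28A arrays 1 and 2, against 40.8 and 22.8 in control arrays 1 and 2. The highest and the lowest array were both LIN28A arrays. The second probe set read 9.5 and 22.7 in LIN28A arrays against 23.7 and 16.6 in control arrays, so LIN28A 1 was the lowest on both probe sets and the highest array differed between them.

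For the remaining genes, Fgf4, Esrrb, Tdgf1 and Zfp42, no array read above 30.9. Fgf4 at its brightest probe set read 12.8 in both LIN28A arrays against 30.9 and 14.1 in control arrays, and its other 3 probe sets ranged from 0.1 to 9.2 over the 4 arrays. Esrrb, an orphan nuclear receptor of naive cells, read 9.5 and 15.2 in LIN28A arrays against 15.6 and 18.5 in control arrays, with 3.1 to 5.2 at its other probe set. The coreceptor gene Tdgf1 read 3.2 and 11.8 in LIN28A arrays against 9.7 and 6.6 in control arrays, and Zfp42 read 0.2 and 1.0 against 5.8 and 0.8. Neither Zfp42 nor Tdgf1 reached 16 on any array.

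The genes whose values over the 4 arrays most resembled those of Pou5f1 and of Sall4 were found among 8930 genes by Euclidean distance between mean-centred log2(intensity + 16) values. With 4 arrays this describes the arrays and gives no test. For Pou5f1 they were Prrc2a (distance 0.75), Laptm4a (0.91), Mapk8ip1 (1.33), Lmnb1 (1.43) and Snrpd3 (1.48). Prrc2a read 81.1 and 825.7 in LIN28A arrays 1 and 2, against 62.0 and 539.6 in control arrays 1 and 2. For Sall4 they were Zcchc3 (0.53), Malat1 (0.84), Meg3 (1.01), Peg3 (1.12) and Dock1 (1.15). Zcchc3 read 290.6 and 78.7 in LIN28A arrays against 18.4 and 9.9 in control arrays.

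Other pluripotency factors gave no call in either contrast. Of the list, 20 genes were measured and 14 passed the filter. In LIN28A cells 1 was higher in both arrays (10% of all genes were) and 4 were lower in both (18.3%), and none passed limma's test. Sox2, the partner of Pou5f1 that neural progenitors also use, read 1557 and 1295 in LIN28A arrays against 1902 and 1697 in control arrays. Mybl2, a cell cycle transcription factor, read 78.4 and 91.3 against 51.2 and 42.8. The nuclear receptor gene Nr5a2 read 4.7 and 3.4 in LIN28A arrays against 28.9 and 6.2 in control arrays. The mouse Lin28a gene, which does not report on the human transgene, read 56.1 and 37.5 against 30.7 and 76.2, with overlapping lines. Between numbers, limma called none of the 14 tested factors, and 8 of the 20 were higher in both number 2 arrays (24.4% of all genes) and 4 lower in both (25.2%).

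Epiblast genes, active in the primed state that follows implantation, included 2 called between numbers, Pou3f1 and Otx2, named here after their values were seen. At the gene level the number fit called 3.63% of 8930 genes higher and 1.67% lower in number 2. Of the 9 epiblast genes, 4 were higher in both number 2 arrays (24.4% of all genes) and 2, Sox11 and Fgf5, lower in both (25.2%). Fgf5, a marker of the primed state, read 9.5 and 0.9 in LIN28A arrays against 11.2 and 0.8 in control arrays. It was 1 of 4 epiblast genes under 16 on every array, and 5 of the 9 passed the filter. Otx2, a homeobox factor of the epiblast and forebrain, read 54.9 and 351.5 in LIN28A arrays 1 and 2, against 95.5 and 227.6 in control arrays 1 and 2 (1.75 higher on the log2 scale in number 2; limma adjusted p = 0.034). Pou3f1 (Oct6), a POU factor of epiblast and neural cells, read 15.6 and 225.4 in LIN28A arrays against 54.8 and 122.1 in control arrays (1.95 higher on that scale; limma adjusted p = 0.048). Like Pou5f1, both had their highest value in LIN28A 2. Between the lines, 2 of 9 epiblast genes were higher in both LIN28A arrays (10% of all genes) and none was lower in both (18.3%). The DNA methyltransferase gene Dnmt3b was one of them, with 165.5 and 221 in LIN28A arrays against 90.6 and 136.2 in control arrays. Sox4 read 2286.5 and 3162 against 2970 and 3631, and Sox11 read 572 and 299 against 365 and 361.

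The Nodal pathway, through which Gdf3 and Tdgf1 signal, had 13 listed genes measured, all of which passed the filter. Of these, 1 was higher in both LIN28A arrays (10% of all genes) and 3 were lower in both (18.3%). The higher one was Lefty1, a Nodal inhibitor and target, with 136.6 and 202.7 in LIN28A arrays against 124 and 46.1 in control arrays, a difference carried by number 2 (1.82, against 0.12 in number 1). Smad3, a signal transducer, read 9.2 and 4.8 in LIN28A arrays against 14.8 and 33.2 in control arrays, and Foxh1, its DNA-binding partner, read 14.4 and 23.6 against 31.6 and 37.7. Cfc1, a coreceptor related to Tdgf1, was the third lower gene.

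Among receptors and feedback genes of FGF signalling, 2 of 9 were higher (10% of all genes) and 2 lower (18.3%) in both LIN28A arrays. The higher genes were the receptor gene Fgfr1 and Etv4. Fgfr1 read 204.1 and 260.7 in LIN28A arrays against 201.3 and 165.9 in control arrays, and Etv4 read 1.1 and 5.8 against 0.8 and 1. Both lower genes were receptors too. Fgfr2 read 364.8 and 355.4 in LIN28A arrays against 497 and 430 in control arrays, and Fgfr3 read 150.2 and 161.1 against 206.6 and 193.6. The inhibitor gene Spry1 read 31.6 in LIN28A 1 and 107.9 in LIN28A 2, against 100.6 and 119.6 in control arrays.

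Of 8 genes known to repress Pou5f1 or to carry the retinoid signal, 1 was higher in both LIN28A arrays (10% of all genes) and 3 were lower in both (18.3%). Nr6a1 (GCNF), an orphan receptor that silences Pou5f1 in differentiating cells, read 8.2 and 5.3 in LIN28A arrays against 19.7 and 14.3 in control arrays. These are low values, and it passed the filter through the control arrays. The retinoic acid receptor gene Rara read 20.6 and 27.0 against 34.5 and 33.8. Dnmt3a, which methylates the silenced Pou5f1 gene, read 219.6 and 459.9 in LIN28A arrays against 202.5 and 141 in control arrays. The 1 gene of this list called between numbers (1.67% of all genes were called lower) was Nr2f1 (COUP-TFI), a repressor that binds the AGGTCA hexamer, named after its values were seen. It read 866.4 and 479 in LIN28A arrays 1 and 2, against 1502 and 636 in control arrays 1 and 2, which is -1.03 in number 2 minus number 1 (limma adjusted p = 0.044). It was lower in both number 2 arrays, as were 25.2% of all genes, and a link to Pou5f1 was not tested.

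A list of 13 genes held subunits of NuRD, a chromatin complex that Sall4 recruits, and the paralogs Sall1 and Sall2, and all 13 passed the filter. Of these, Mta3 and Hdac2 were higher in both LIN28A arrays (10% of all genes) and none was lower in both (18.3%). Mta3, a NuRD subunit, read 118.7 and 146.7 in LIN28A arrays against 72.3 and 71.5 in control arrays. The histone-binding subunit gene Rbbp7 read 2837 and 2029 against 2112 and 1503, and the paralog gene Sall2 read 184.2 and 202 against 119 and 189.8, both with overlapping lines. The number fit called 3 of the 13, the helicase gene Chd4 and Sall1 higher (3.63% of all genes) and Gatad2b lower (1.67%) in number 2, all named after their values were seen. Sall1 read 23.0 and 101 in LIN28A arrays against 18.4 and 111.6 in control arrays, an order by number opposite to that of Sall4.

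Markers of the cells that P19 cultures can hold differed in both contrasts, and their part in the results above was not tested. Of 7 neuronal markers, 2 were lower in both LIN28A arrays (18.3% of all genes) and none higher in both (10%). In the other contrast 5 were higher in both number 2 arrays (24.4% of all genes), of which the number fit called 4 (3.63%). Their summed intensity was 1079 and 2416 in LIN28A arrays 1 and 2, against 2089 and 3206 in control arrays 1 and 2. Elavl4, which encodes a neuronal RNA-binding protein, read 129.8 and 189.7 in LIN28A arrays against 231.8 and 453 in control arrays. Stmn2, a neuronal microtubule regulator, read 216.1 and 626.9 against 820.7 and 902.1, and Map2, a dendritic microtubule protein gene, read 8.6 and 35.8 against 21.5 and 116.8. Within each line, the number 2 array thus read higher for Pou5f1 and for each neuronal marker, but by unlike amounts. In control cells the difference was 3.08 for Pou5f1 and from 0.09 (Tubb3) to 1.82 (Map2) among the markers, with 0.13 for Stmn2.

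Neural progenitor markers summed to 5821 and 4418 in LIN28A arrays against 5149 and 6932.5 in control arrays. Vim made up the largest part of each sum, so the sums say little of the other markers. The median LIN28A minus control over the list was 0.72 in number 1 and -0.67 in number 2. Hes5, a Notch effector of progenitors, read 924.2 and 337 in LIN28A arrays against 185.6 and 194.3 in control arrays. Vim read 3682 and 2983 in LIN28A arrays against 4084.5 and 4165 in control arrays, and Fabp7, a fatty acid binding protein gene of radial glia, read 613 and 734.6 against 565 and 1955.

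Endoderm markers summed to 282.4 and 685.6 in LIN28A arrays against 305.8 and 463.1 in control arrays. The defining genes Sox17, Gata4, Foxa2 and Afp stayed under 16 on every array. Lamb1, a laminin chain gene, read 106.8 and 272.7 in LIN28A arrays against 83.8 and 45.6 in control arrays. Dab2 read 13.7 and 39.0 against 8.9 and 15.4, and Gata6 read 10.3 and 24.6 against 15.9 and 7.8. Lama1, another laminin chain gene, went the other way within each number, with 127.4 and 335.7 in LIN28A arrays against 166.6 and 383.3 in control arrays. It was the 1 gene of this list called between numbers (3.63% of all genes were called higher), named after its values were seen. The fit put it 1.21 higher in number 2 (limma adjusted p = 0.031).

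Mesoderm markers summed to 43.6 and 132.5 in LIN28A arrays against 71.1 and 55.2 in control arrays, with T not analysed here. Eomes, a T-box factor downstream of Nodal, read 10.5 and 104.9 in LIN28A arrays against 14.7 and 24.7 in control arrays, so LIN28A 2, the array with the highest Pou5f1, also had the highest Eomes. Msgn1 read 8.6 and 1.8 against 10.6 and 16.2, and Mesp1 read 12.1 and 10.3 against 17.6 and 3.3. All 4 germ cell markers stayed under 16 on every array, with sums of 21.3 and 8.7 in LIN28A arrays against 24.2 and 5.1 in control arrays. Trophoblast markers summed to 136 and 167 in LIN28A arrays against 161 and 181 in control arrays, of which Tfap2c, also active in neural crest, gave 114 and 145.9 against 98.8 and 147.9. Krt18, an epithelial keratin gene, read 10 and 9.3 against 44.8 and 14.3, and Cdx2 and Elf5 stayed under 16 on every array, as did Hand1. No marker in any list read exactly 0.

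**Figure D4:**
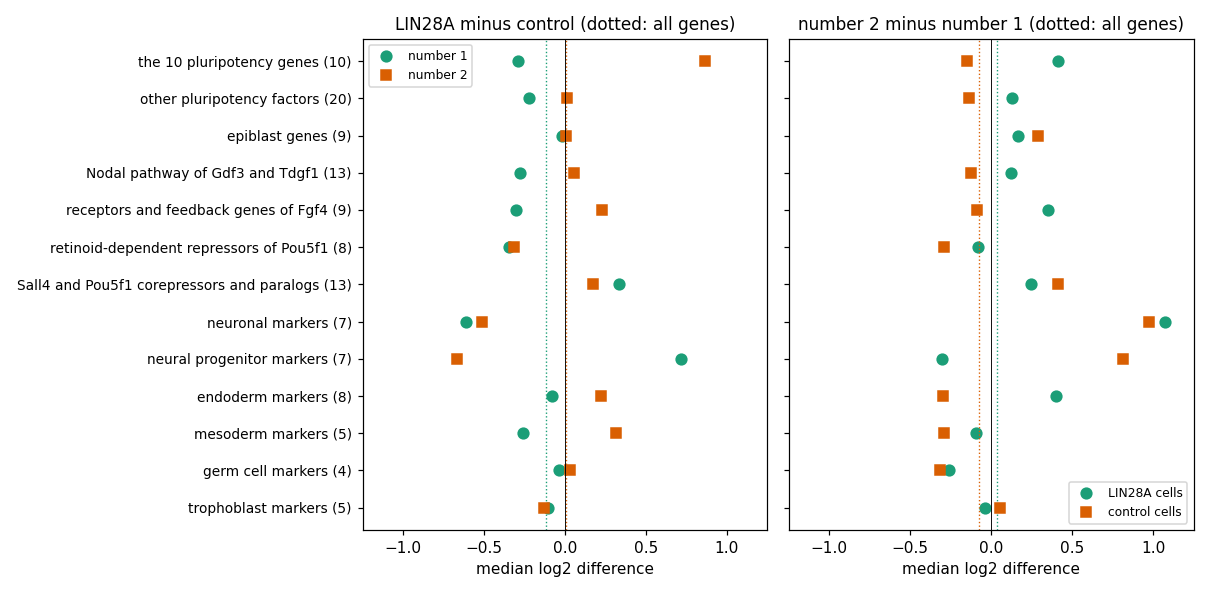
Median log2 difference of each gene list (number of genes measured in brackets), with LIN28A minus control on the left (circles number 1, squares number 2) and number 2 minus number 1 on the right (circles LIN28A cells, squares control cells). Dotted lines are the medians over 12393 genes. The 10 pluripotency genes lie at -0.29 in number 1 and 0.87 in number 2, and neuronal markers at -0.61 and -0.51.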

How the data were processed

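The authors deposited 1 table of linear intensity values, with no log taken, for 22690 probe sets on 4 arrays. Per the labels' protocols, biotin-labelled cRNA was hybridised to 1-colour Affymetrix arrays. The sources used here name no software for summarising or scaling. With 2% of values trimmed from each end, every array averaged 150.1, so the values were taken as already scaled. The 64 control probe sets were used only as quality values. Genes were named where the platform annotation gives 1 symbol (20380 probe sets; 691 had several and 1555 none).

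Values were turned into log2(value + 16), and probe sets under the 30th percentile of mean log2 value (about 8.04) were left out of tests. The 15838 left were fitted with limma 3.58.1 in R 4.3.3 (lmFit and eBayes), with Benjamini-Hochberg adjustment and a threshold of 0.05. The main test between lines had line as its only term, and the test between numbers had line and number. Comparisons of 1 array with 1 used all probe sets, with no test. The fit was also run on simulated data with independent normal noise, and no result given here rests on that run.

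Separate cultures are not named for the repeats, so a p-value reflects variation among the arrays alone, possibly technical, and their number limits the precision. Members and lists were chosen with earlier results of these data known. A gene in a list was read at its brightest probe set, and the 3 with the smallest unadjusted p are named, with Sox2 and Lin28a always and the 5 nearest genes by distance. Of the genes so named, Nr6a1, Smad3, Nr5a2 and Msgn1 passed the filter through the control arrays, where they were high. Their place by p is not independent of that. The alternatives tried are given in the closing section.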

Additional observations from a re-analysis of the deposited data

Results flagged for a closer look

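Klf4 is singled out because its arrays moved in opposite directions in the 2 lines. At its brighter probe set, number 2 minus number 1 was 1.49 in LIN28A cells and -0.55 in control cells on the log2(intensity + 16) scale. Each value sets 1 array against 1, so the difference between the lines was not tested. At the second probe set the same differences were 0.60 and -0.28.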

How the results depend on the processing

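All settings were planned except the 30th percentile filter for medians over the 16 probe sets, chosen after seeing the data. The cause was not tested for any value that moved. No tested pluripotency probe set was called between the lines under any setting. Deviations from the line means correlated between arrays of the same number (r = 0.62 over probe sets), which share only that number in the labels. With the replicate block, limma called 1 probe set higher and 0 lower in all, and Sall4 had an adjusted p of 0.060 at a difference of 2.58. The unadjusted p of that fit was under 0.05 for 468 higher (2.95%) and 890 lower probe sets (5.62%). Among them were 4 of the 10, higher: both of Sall4, Utf1 and Gdf3 (0.71 ± 0.25 SE, limma unadjusted p = 0.030, adjusted p = 0.57). Of these, Utf1 and the second Sall4 probe set passed the filter through the LIN28A arrays. The count of 4 is thus not independent of where they were high. The tested probe sets of Sall4, Utf1, Fgf4 and Esrrb kept their sign under all settings run. The brighter one of Sall4 lay between 1.42 (pseudocount 64) and 4.12 (pseudocount 1). Those of Fgf4 and Esrrb, at low values, came as near 0 as -0.06 and -0.03. The other probe sets of Fgf4 and Esrrb failed the filter and were not run. With 1 array left out, the difference ranged from -1.59 to 2.56 for Pou5f1, from -0.85 to 1.76 for Nr0b1, from -0.10 to 1.52 for Gdf3, from -0.66 to 0.83 for Klf4 and from -0.50 to 0.11 for its second probe set. Median centring moved the median difference of all probe sets from -0.05 to 0.08.

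Over all probe sets, the calls between numbers were 926 higher and 405 lower, against 592 and 788 with median centring, 1445 and 967 with pseudocount 64, 1430 and 931 with a trended prior, and 665 lower with quantile normalization. Between numbers, pseudocount 1 and no filter each called 0 of the 10 higher and 0 lower, against 3 and 1. Quantile normalization and pseudocount 64 each called 0 lower. The median over the 16 probe sets, mostly low values, moved with the settings. In number 1, LIN28A minus control was -0.59 with pseudocount 1 and 0.14 with the 50th percentile filter. In number 2 it was 0.87 with the 30th and 1.14 with the 50th percentile filter, and 0.70 with a gene's probe sets averaged. Number 2 minus number 1 in LIN28A cells was 0.40 with pseudocount 1, -0.18 with median centring, 0.45 and 2.11 with the 30th and 50th percentile filters, and 0.31 with probe sets averaged. In control cells it was -0.46 with pseudocount 1, 0.080 with quantile normalization and 1.0 with the 50th percentile filter. With no detection calls, values under about 16 cannot be ranked against background.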
